A study of Mus musculus with 8 samples.

Results

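The 10 genes described here encode the subunits of the transcription factor NF-kB and a group of its inhibitors and feedback genes, measured in the luminal cells of the mouse mammary gland. The members were taken by name as the rows of the count table whose Entrez Gene ID maps to Nfkb1, Nfkb2, Rela, Relb, Rel, Nfkbia, Nfkbie, Nfkbiz, Bcl3 or Tnfaip3. All 10 were found among 24594 listed genes, and all 10 passed the filter on low counts that left 12816 genes for testing. The RNA came from untreated wild type C57BL/6J mice, and the study's methods give an age of 12 to 20 weeks for its mice without naming the age of these animals. Per the labels, mammary epithelial cells were sorted on EpCAM, CD49f, c-Kit and CD14 after removal of cells bearing TER-119, CD31 or CD45. This gave a luminal progenitor (LP) fraction with high c-Kit and a mature luminal fraction with low c-Kit. The paper's results name c-Kit, and not CD14, for the split of these fractions. Each fraction was sequenced in 4 libraries from 500 pg of RNA, and the comparison asks which genes differ in RNA level between progenitor and mature luminal cells. The sources used here do not say whether a library came from 1 mouse or a pool, so p-values measure the spread between libraries.

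NF-kB is a family of dimers built from RelA, RelB, c-Rel, p50 and p52, the last pair being cut from the precursors p105 (Nfkb1) and p100 (Nfkb2). In resting cells the dimers are held in the cytoplasm by IkB proteins, and signals from receptors such as those for TNF, interleukin 1 and RANKL activate IkB kinases that mark the IkB proteins for degradation. The freed dimers turn on many genes, among them genes for their own subunits and for the inhibitors that end the response. In the mammary gland, RANK signalling through NF-kB is known to act on progenitor growth during pregnancy and after progesterone.

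NF-kB dimers bind short kB motifs in promoters, and the promoter windows of the members were searched for the kB consensus decamer on both strands, with overlapping matches counted. RefSeq windows of 300 bases (GRCm38.p6, 250 before and 50 after each start) were held for 7 members, namely Nfkb2, Rela, Rel, Nfkbia, Nfkbie, Bcl3 and Tnfaip3. The motif occurred in 6 of these 7, all but Rela, against 5.14% of 27025 genes with a window and 6.18% of the 10164 tested genes with one. The stretches below are shown because they carry the matches of members whose levels are described afterwards, and capitals mark the matched bases. Only short stretches are given where an annotated exon lies close by.
Nfkbia, chr12:55492648-55492747, minus strand: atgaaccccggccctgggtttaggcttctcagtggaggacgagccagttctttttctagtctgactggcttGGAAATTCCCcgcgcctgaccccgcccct
Nfkbie, chr17:45555569-45555699, plus strand: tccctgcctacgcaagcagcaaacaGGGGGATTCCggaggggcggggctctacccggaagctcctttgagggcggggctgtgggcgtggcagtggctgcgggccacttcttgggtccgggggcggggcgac
Rel, chr11:23771042-23771071, minus strand: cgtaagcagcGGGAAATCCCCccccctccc
Tnfaip3, chr10:19015516-19015545, minus strand: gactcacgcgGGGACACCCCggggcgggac
Nfkb2, first window, chr19:46304688-46304717, plus strand: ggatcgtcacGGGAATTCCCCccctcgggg
Nfkb2, last window, chr19:46305695-46305724, plus strand: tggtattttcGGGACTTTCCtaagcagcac

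The match in Nfkbia began 29 bases before the start and lay on the strand opposite the gene. That of Nfkbie began 106 bases before the start, that of Rel 92 bases and that of Tnfaip3 125 bases, with a further Tnfaip3 match 12 bases before the start. The first Nfkb2 window held matches 39, 38 and 11 bases before its start. In Bcl3 the only match, GGGAAGTCCC at chr7:19822744-19822753, began at the third base after the start used for its window, which lies inside the RefSeq span of the gene. Motif-bearing members lay on both sides of the comparison described below, with Rel higher in LP and Tnfaip3 and Bcl3 lower in LP. A match is a description of letters and was not tested for binding.

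The label of the fractions was checked against marker genes first. Of 6 luminal progenitor markers, 5 were higher in LP by edgeR's quasi-likelihood test, and all 7 mature luminal markers were lower. Among the 6, Kit and Cd14 encode markers named for the sort. Their difference is therefore no separate check of the label. Of the others, Elf5, Csn3 and Ltf were called and Aldh1a3 was not (edgeR adjusted p = 0.0512). Of 5 markers listed for both fractions, 4 were lower in LP (Krt8, Krt18, Krt19 and Cldn3), with a median log2 fold change of -1.24. Summed progenitor marker level was 25615 to 40246 CPM (counts scaled to a library of 1000000) in LP libraries and 507 to 2656 CPM in mature libraries, the highest of the latter being mature replicate 3. Cd14 alone had a mean of 14087 CPM in LP and 185 CPM in mature libraries. Library totals were 5510863 to 7089597 counts in LP and 4410049 to 7791593 in mature libraries. Counts of the members ranged from 10 to 6130 per library, with Rel the lowest and Nfkbia the highest. All CPM values below were scaled with TMM factors, and a positive log2 fold change means a higher level in LP.

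Between the fractions, 3 of the 10 members passed an adjusted p of 0.05. Rel was higher in LP, by 3.83-fold, while Tnfaip3 and Bcl3 were lower in LP, with mature levels 2.84-fold and 1.88-fold the LP levels. Of all tested genes, 24.7% passed the same threshold, 10.9% being higher and 13.8% lower in LP, so 3 of 10 lies near the background. The median log2 fold change of the members was 0.00, as was that of all tested genes. By role they parted, with 4 of 5 subunits at positive and 4 of 5 inhibitors and feedback genes at negative log2 fold changes, the medians being 0.43 and -0.78. Only 1 subunit and 2 feedback genes passed the test, and the difference between the roles was not tested.

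**Figure D1:**
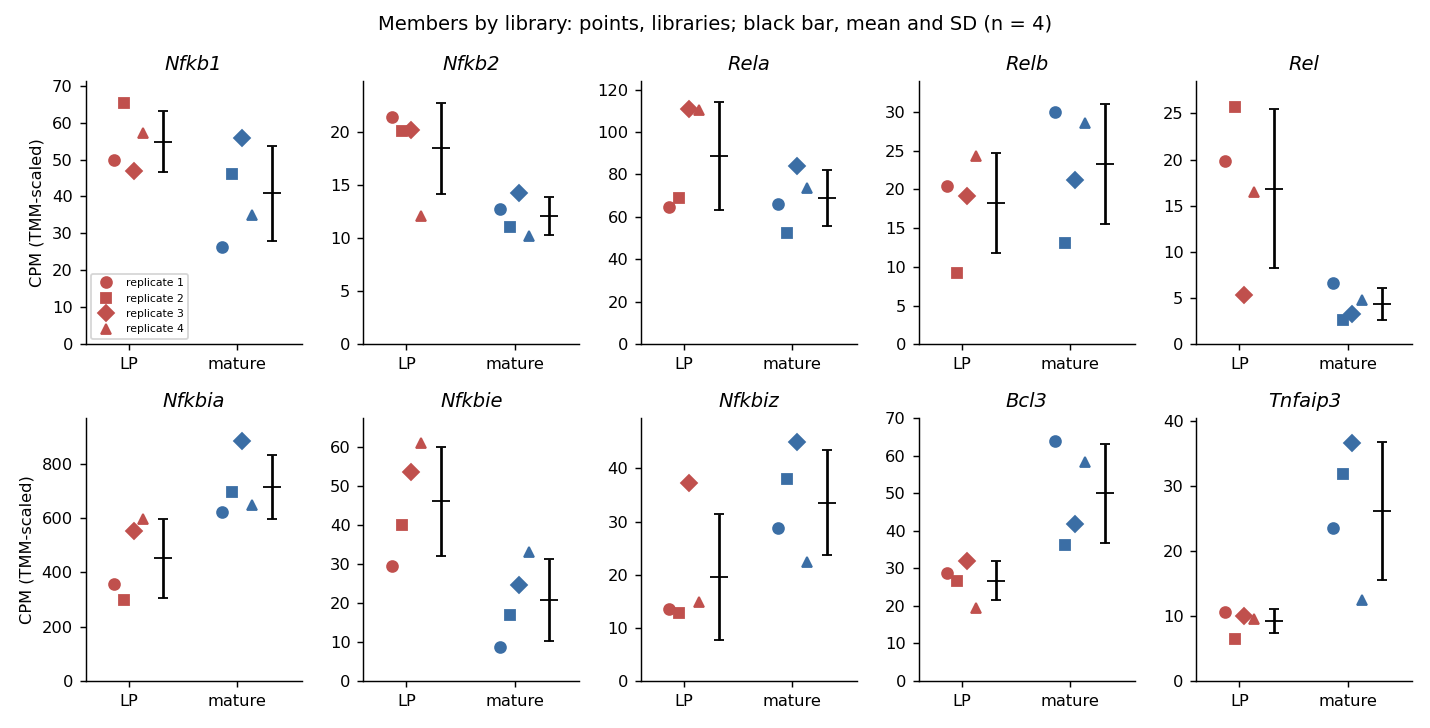
Level of each member in CPM (vertical axes, each from 0) in the 4 LP and 4 mature libraries, with point shapes for replicate numbers and black bars for the mean ± SD. The libraries do not overlap for Nfkbia, Bcl3 and Tnfaip3, and the LP point of Rel at 5.31 CPM lies below the highest mature point at 6.61 CPM.

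Rel encodes c-Rel, the subunit best known from lymphocytes. Its gene lies at chr11:23736847-23770969 on the minus strand. Rel was at 19.9, 25.7, 5.31 and 16.5 CPM in LP replicates 1 to 4 and at 6.61, 2.63, 3.32 and 4.82 CPM in mature replicates 1 to 4. LP replicate 3 sat among the mature libraries, and the other 3 LP libraries were above all of them. The log2 fold change was 1.94 ± 0.51 (SE, n = 4 per fraction), with a 95% interval of 0.81 to 3.07 and an edgeR adjusted p of 0.0189. The call was lost without LP replicate 1 (1.86, edgeR adjusted p = 0.0512) or LP replicate 2 (1.67, 0.0663), and without LP replicate 3 the log2 fold change was 2.24 at an edgeR adjusted p of 0.00668. With replicate 1, 2 or 4 left out of both fractions the call was lost too (edgeR adjusted p = 0.0574, 0.123 and 0.0713). Fewer cells with the transcript and less transcript per cell cannot be told apart in these bulk libraries, for Rel or any other gene.

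Because c-Rel is abundant in blood cells, markers of other cell types were read beside it. Of 9 immune markers, 3 were tested (Cd68, Csf1r and Cd74) and 0 were called by edgeR or DESeq2 or reached an unadjusted p under 0.05, the edgeR adjusted p-values being 0.134 to 0.819. The defining marker Ptprc, the gene for CD45, had 3 counts over all 8 libraries, Lyz2 had 9, and Cd3e and Tyrobp had 0. The summed immune level was 49.5 to 66.9 CPM in LP and 22.4 to 59.6 CPM in mature libraries. Cd68 had the highest mean of the list, at 42.5 CPM in LP and 22.2 CPM in mature libraries. In mature replicate 3, Cd74 (15.2 CPM) exceeded Cd68 (7.65 CPM). Summed basal markers were at 4.02 to 16.8 CPM in LP and 5.78 to 47.2 CPM in mature libraries, endothelial markers at 3.88 to 9.92 and 2.25 to 10.5 CPM, and fibroblast markers at 7.35 to 37.9 and 20.6 to 173 CPM. Of these 3 lists 8 genes were tested, 0 passed edgeR's quasi-likelihood test, 4 had an unadjusted p under 0.05 and DESeq2 called 2.

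Rela encodes p65, the main activating subunit of the classical pathway (chr19:5637442-5648134, plus strand). It measured 64.8, 69.0, 111 and 110 CPM in LP and 66.2, 52.3, 84.0 and 73.5 CPM in mature libraries. The ranges overlapped, and LP replicates 3 and 4 stood above all mature libraries. Its log2 fold change was 0.36 ± 0.23 (edgeR adjusted p = 0.285), and its 95% interval of -0.15 to 0.87 leaves out a 2-fold difference in either direction.

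Nfkb1, the gene for p105 and p50, lies at chr3:135584655-135691969 on the minus strand. It was at 49.8, 65.3, 47.0 and 57.3 CPM in LP and 26.3, 46.0, 55.9 and 35.1 CPM in mature libraries. Mature replicate 3 was within the LP range and the other 3 mature libraries were below it. At 0.43 ± 0.24, its log2 fold change had a 95% interval of -0.11 to 0.96 (edgeR adjusted p = 0.227), and was 0.65 without mature replicate 3, still above the threshold at 0.0664. The gene model Gm43430 overlaps 3897 bases of it on the same strand.

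Nfkb2, the gene for p100 and p52 of the alternative pathway, lies at chr19:46300994-46312400 on the plus strand. It measured 21.5, 20.1, 20.3 and 12.1 CPM in LP against 12.8, 11.03, 14.3 and 10.2 CPM in mature libraries. LP replicates 1 to 3 were above every mature library and LP replicate 4 fell inside the mature range. The log2 fold change of 0.61 ± 0.29 had a 95% interval of -0.04 to 1.26 (edgeR adjusted p = 0.155). Genes on the opposite strand overlap it over 1292 bases (AC114539.1) and 299 bases (Psd). Whether the counting used strand is not given in the sources used here, so reads of these partners cannot be told apart from its own.

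Relb, whose product pairs with p52, lies at chr7:19606217-19629438 on the minus strand, 179023 bases from Bcl3. It was the 1 subunit with a negative value, at 20.5, 9.20, 19.1 and 24.3 CPM in LP and 29.95, 13.1, 21.2 and 28.6 CPM in mature libraries. The lowest library of each fraction was replicate 2, and the ranges overlapped over most of their width. Its log2 fold change was -0.35 ± 0.36 (95% interval -1.14 to 0.44, edgeR adjusted p = 0.514), so a 2-fold lower level in LP lies within the interval.

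**Figure D2:**
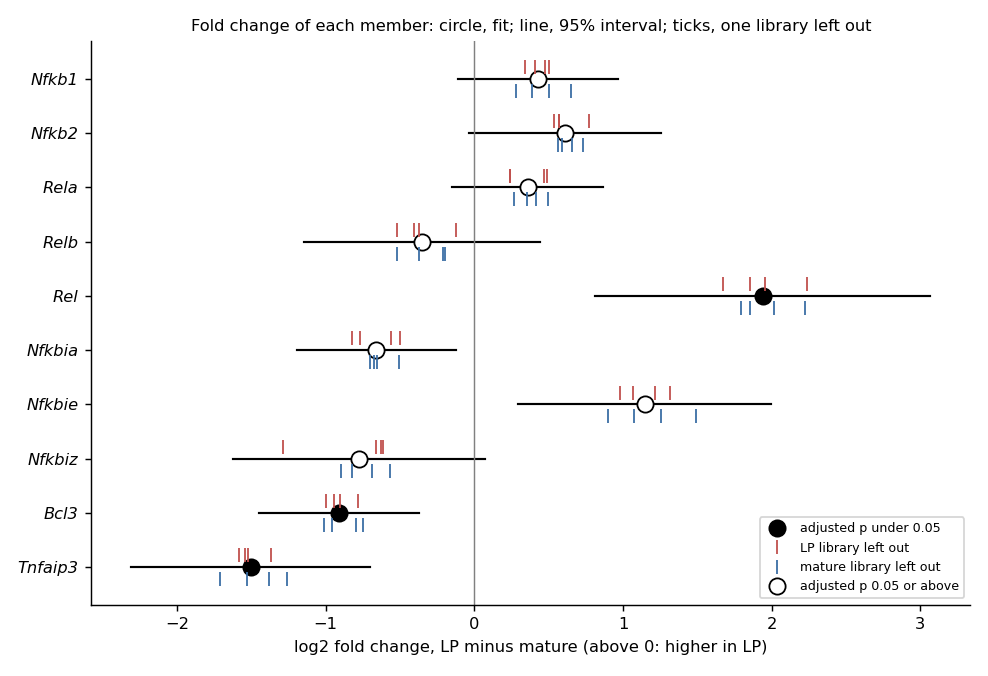
Log2 fold change of each member, LP minus mature (horizontal axis), as circles with 95% intervals, filled where the edgeR adjusted p was under 0.05, and ticks for the fit without each LP or mature library. Rel at 1.94, Bcl3 at -0.91 and Tnfaip3 at -1.51 are filled, and the ticks of each member stay on the side of 0 of its own circle.

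Among the feedback genes, Tnfaip3 differed most. It encodes A20, an enzyme that edits ubiquitin chains and shuts off signalling upstream of the IkB kinases (chr10:19000910-19015410, minus strand). Its level was 10.6, 6.47, 9.96 and 9.57 CPM in LP and 23.5, 31.8, 36.5 and 12.4 CPM in mature libraries. Every LP library was below every mature library, with mature replicate 4 the closest to LP. The log2 fold change was -1.51 ± 0.36 (95% interval -2.31 to -0.70, edgeR adjusted p = 0.0128). The call held when any single library was left out, at edgeR adjusted p-values up to 0.0408, and was lost when replicate 2 (0.0944) or replicate 3 (0.0542) was left out of both fractions.

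Bcl3 encodes an atypical nuclear IkB protein that binds p50 and p52 dimers on DNA (chr7:19808462-19822824, minus strand). It was at 28.9, 26.6, 31.9 and 19.6 CPM in LP and 64.0, 36.2, 41.7 and 58.3 CPM in mature libraries, with no overlap. LP and mature levels differed by -0.91 ± 0.24 on the log2 scale (95% interval -1.45 to -0.37, edgeR adjusted p = 0.0205). The edgeR adjusted p rose above 0.05 without LP replicate 2 (0.0546), LP replicate 4 (0.0584), mature replicate 1 (0.0673) or mature replicate 4 (0.0571), at log2 fold changes of -0.90, -0.78, -0.75 and -0.80. It also did so with replicate 1 (0.107) or replicate 4 (0.115) left out of both fractions. Antisense genes Gm16175 and Gm16174 overlap 2264 and 2073 bases of Bcl3, and reads of the opposite strand cannot be told apart from its own.

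Nfkbia encodes IkBa, the inhibitor that is degraded and quickly made anew in each round of signalling (chr12:55489409-55492647, minus strand). It measured 358, 298, 553 and 597 CPM in LP and 622, 697, 885 and 648 CPM in mature libraries. The fractions did not overlap, though LP replicates 3 and 4 came close to mature replicates 1 and 4. The log2 fold change of -0.66 ± 0.24 did not pass (95% interval -1.19 to -0.13, edgeR adjusted p = 0.0707), and without LP replicate 4 it was -0.82 at an edgeR adjusted p of 0.0486. That was the 1 call in 12 fits with libraries left out, where the edgeR adjusted p reached 0.251. Libraries did not overlap for 3 of 10 members, Nfkbia, Bcl3 and Tnfaip3, all with mature higher, beside 29.5% of all tested genes in either direction and 15.5% with mature higher.

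Nfkbie, the gene for the related inhibitor IkBe, was the exception in direction (chr17:45555700-45563169, plus strand). It was at 29.5, 40.0, 53.6 and 61.0 CPM in LP and 8.58, 16.8, 24.5 and 33.1 CPM in mature libraries. Mature replicate 4 lay above LP replicate 1, and the remaining libraries were apart. On the log2 scale the difference was 1.14 ± 0.39 (95% interval 0.29 to 1.998) at an edgeR adjusted p of 0.0524. It passed without LP replicate 1 (1.31, edgeR adjusted p = 0.0484) or mature replicate 4 (1.49, 0.0251). These were the 2 calls in 12 fits with libraries left out, where the edgeR adjusted p reached 0.166.

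Nfkbiz encodes IkBz, an inducible nuclear IkB protein that helps switch on a second wave of targets (chr16:55811375-55838954, minus strand). It measured 13.5, 12.8, 37.4 and 14.8 CPM in LP and 28.8, 38.1, 44.9 and 22.4 CPM in mature libraries. LP replicate 3 alone lay within the mature range. With it the log2 fold change was -0.78 ± 0.38 (95% interval -1.62 to 0.07, edgeR adjusted p = 0.168), and without it -1.28 ± 0.30 (edgeR adjusted p = 0.0161). Nfkbiz was called in 2 of 12 fits with libraries left out, both without LP replicate 3, and the edgeR adjusted p reached 0.497 in the others. LP replicate 3 was the lowest LP library for Rel and Nfkb1, and the highest for Nfkbiz, Bcl3 and Rela.

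The number of members called depended on the test. DESeq2's Wald test, which called 29.6% of genes, and edgeR's likelihood ratio test, which called 29.2%, each called 5 members, adding Nfkbia (adjusted p = 0.0347 and 0.0474) and Nfkbie (0.0180 and 0.0197). Without normalization factors the median of all tested genes shifted by 0.19 on the log2 scale, the calls were split into 2031 higher and 1281 lower in LP in place of 1394 and 1767, and the members called were Rel, Nfkbie (edgeR adjusted p = 0.0374) and Tnfaip3, with Bcl3 at 0.0686. No member changed sign under that scaling.

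Levels of different members were compared per length, as CPM per 1000 bases of merged exons (RPKM). Nfkbia was far above the others in both fractions, at 280 ± 90.5 RPKM in LP and 443 ± 73.7 RPKM in mature libraries (mean ± SD, n = 4). Rela followed at 28.9 ± 8.22 and 22.5 ± 4.34 RPKM. In LP the order then ran Nfkbie (15.1), Bcl3 (10.8), Relb (4.70), Nfkb1 (4.55), Nfkb2 (4.03), Nfkbiz (3.91), Rel (2.26) and Tnfaip3 (1.27 RPKM). Nfkbie and Bcl3 overlapped, Bcl3 and Relb did not, and from Relb to Tnfaip3 every neighbour overlapped the next. In mature libraries Rel was last at 0.58 ± 0.24 RPKM, apart from Nfkb2 at 2.64 ± 0.40 RPKM, while Bcl3 at 20.2 ± 5.33 RPKM overlapped Rela. Tnfaip3 went from the last place in LP to the seventh in mature libraries, and Rel from the ninth to the last.

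**Figure D3:**
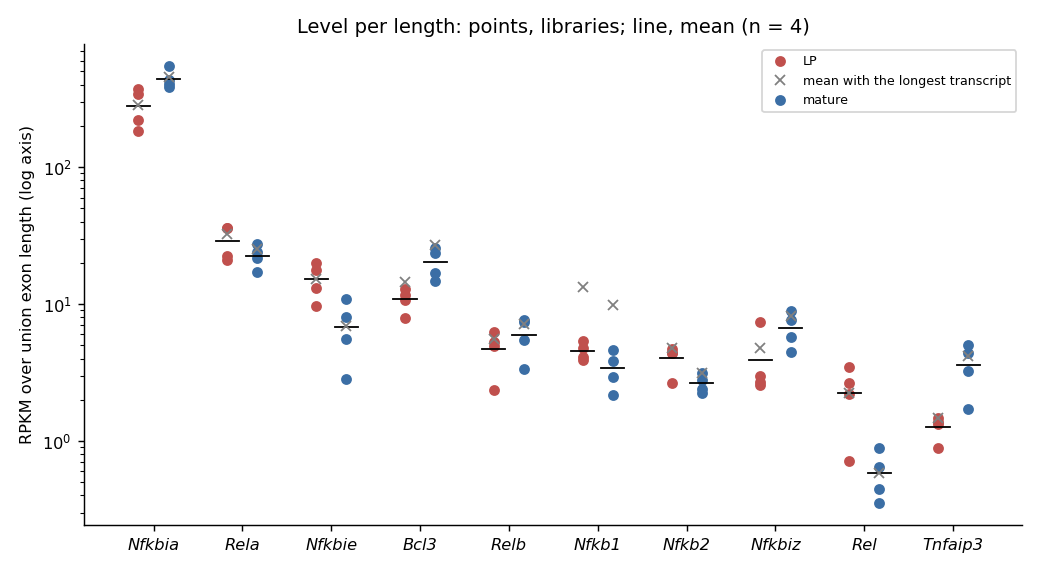
Level of each member per length (RPKM over merged exons, log axis) in LP and mature libraries, with points for libraries, lines for means and crosses for means computed with the longest transcript. Nfkbia lies highest at 280 and 443 RPKM, and the crosses of Nfkb1 lie well above its points.

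The place of Nfkb1 in that order depends on its length. Its merged exons span 12061 bases and its longest transcript 4149 bases, and with the latter its mean over the 8 libraries was 11.5 RPKM in place of 3.97 RPKM. Its place then moved from the sixth to the fifth in LP and from the eighth to the fourth in mature libraries. In mature libraries Bcl3 then stood above Rela, Nfkbie was the seventh in place of the fourth and Tnfaip3 the eighth in place of the seventh. For every other member the mean over the 8 libraries changed by less than the SD over those libraries. Against the SD within a fraction (n = 4), the change was larger for Bcl3, and for Nfkb2 in mature libraries. Bcl3 went from 10.8 ± 2.12 to 14.45 RPKM in LP and from 20.2 ± 5.33 to 27.1 RPKM in mature libraries. Nfkb2 went from 2.64 ± 0.40 to 3.14 RPKM in mature libraries. The place of Bcl3 thus also depends on length.

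Profiles most like those of 3 members were sought among 9567 tested genes with a mean of at least 3 log2 CPM, by the mean absolute difference of centred log2 CPM over the 8 libraries. For Nfkb1 these were Vma21 (0.10), Mrpl4 (0.10) and Ccnh (0.11), where the median over all candidates was 0.49. For Nfkbia they were Zmynd15 (0.12), the chemokine gene Cxcl16 (0.13) and Nectin2 (0.13), against a median of 0.54. For Nfkbiz they were Dot1l (0.11), Klhl25 (0.12) and Wwtr1 (0.18), against 0.70. With this many candidates and 8 libraries, close profiles are a description only.

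The rest of the pathway was read from lists of genes by role. Their counts stand beside 24.7% of all tested genes called, 10.9% higher and 13.8% lower in LP. No list was tested against those shares. At the receptor level, 10 of 12 genes were tested, 2 were higher in LP and 3 were lower, with a median log2 fold change of -0.36. Tnfrsf11a, the gene for RANK, was at 26.1, 47.7, 31.9 and 30.1 CPM in LP and 2.25, 5.52, 9.82 and 5.12 CPM in mature libraries (log2 fold change 2.58 ± 0.42, edgeR adjusted p = 0.00200). Il1rap, the shared signalling chain for interleukin 1 family receptors, was also higher in LP (2.49 ± 0.61, edgeR adjusted p = 0.0134). Il18r1, the interleukin 18 receptor, was lower in LP, at 4.48 to 10.5 CPM against 99.8, 69.3, 12.7 and 68.6 CPM (-3.28 ± 0.55, edgeR adjusted p = 0.00236), and mature replicate 3 stood closest to LP. Tnfrsf21, the gene for death receptor 6, was lower too (-1.88 ± 0.20, edgeR adjusted p = 0.000327).

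Of 10 ligand genes, 4 were tested and 1 was higher in LP, Tnfsf12, which encodes TWEAK (1.43 ± 0.46, edgeR adjusted p = 0.0451), a call lost in 10 of the 12 fits with libraries left out. Of 18 adaptors and ubiquitin ligases, 4 were higher in LP and 0 lower, beside 10.9% and 13.8% of all tested genes. Their median was 0.28. Traf5, an adaptor of TNF family receptors, measured 252, 254, 281 and 280 CPM in LP and 120, 140, 92.1 and 120 CPM in mature libraries (1.18 ± 0.16, edgeR adjusted p = 0.000821). Myd88, the adaptor of interleukin 1 and Toll-like receptors, had a log2 fold change of 1.24 ± 0.40 (edgeR adjusted p = 0.0439), with mature replicate 4 at 68.9 CPM inside the LP range of 68.0 to 91.8 CPM.

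The kinase step showed no such calls. All 12 genes of the IkB kinase complex and its upstream kinases were tested and 0 passed edgeR's quasi-likelihood test, beside 24.7% of all tested genes. Their median log2 fold change was -0.02. At an unadjusted p under 0.05 there were 2, Chuk (0.69 ± 0.31, edgeR adjusted p = 0.126) and Ikbkb (0.63 ± 0.24, 0.0853), both on the LP side. Positive log2 fold changes were seen for 6 of the 12 genes. DESeq2 and edgeR's likelihood ratio test each called 0. Ikbkg, the regulatory subunit NEMO, had a log2 fold change of 0.43 ± 0.19 (edgeR adjusted p = 0.134) and Tab2, a partner of the kinase TAK1, had 0.02 ± 0.20 (0.966). Of 4 further listed genes, IkB family genes and other NF-kB regulators, 2 were tested and 0 were called by edgeR or DESeq2. At an unadjusted p under 0.05 in edgeR there were 0. The tested 2 were Nfkbib, an IkB family gene (0.22 ± 0.21, edgeR adjusted p = 0.470), and Nkap, which is not one (0.40 ± 0.21, 0.191).

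Of 14 deubiquitinases and other brakes, 3 were lower in LP and 0 higher, beside 13.8% and 10.9% of all tested genes. Their median was 0.04. Otud7b, which encodes the deubiquitinase Cezanne, was at 45.6 to 66.2 CPM in LP and at 167, 168, 60.1 and 97.9 CPM in mature libraries (-1.12 ± 0.30, edgeR adjusted p = 0.0205). Pdlim2, which promotes turnover of nuclear p65, was at 18.3 to 32.2 CPM in LP and 45.8 to 57.5 CPM in mature libraries (-1.03 ± 0.22, edgeR adjusted p = 0.00710). Rnf11, a partner of A20, was the third (-0.97 ± 0.20, edgeR adjusted p = 0.00583).

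Known NF-kB target genes went both ways. Of 30 listed, 24 were tested, and 8 were higher and 4 lower in LP, beside 10.9% and 13.8% of all tested genes. The median log2 fold change was 0.20. C3, the central complement component, was at 154, 117, 369 and 306 CPM in LP and 21.5, 8.67, 43.0 and 29.2 CPM in mature libraries (3.19 ± 0.49, edgeR adjusted p = 0.00140). Tnfaip2 (3.09 ± 0.44, edgeR adjusted p = 0.00104) and the survival gene Bcl2a1d (2.83 ± 0.77, 0.0221) were higher in LP as well. Bcl2a1d has near-identical copies in the mouse genome, so the assignment of its reads is uncertain. Gadd45b, a stress-response gene that restrains JNK signalling, was lower in LP, at 8.91 to 38.8 CPM against 167 to 220 CPM (-3.09 ± 0.36, edgeR adjusted p = 0.000449).

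**Figure D4:**
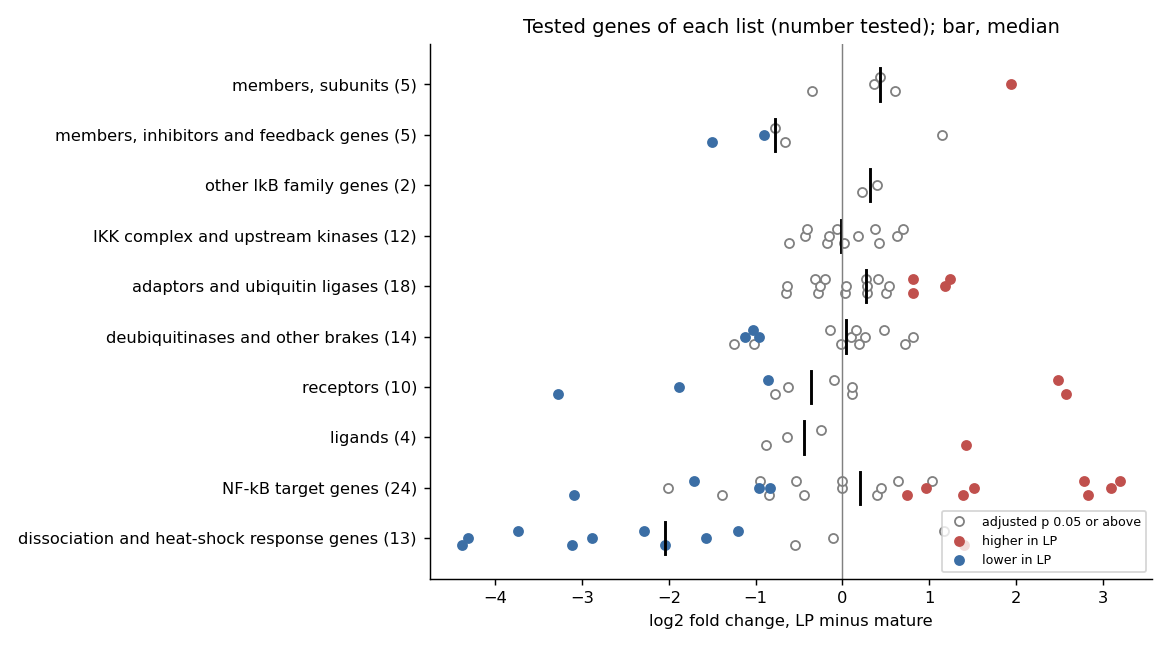
Log2 fold change, LP minus mature (horizontal axis), of the tested genes of each list, with the number tested in brackets, coloured where the edgeR adjusted p was under 0.05, and a bar for the median. The kinase list has 0 coloured points, and 9 of 13 genes of the dissociation and heat-shock list are coloured as lower in LP. The list labelled other IkB family genes also holds Nkap, which is not an IkB family gene.

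Several feedback members are also induced when tissue is dissociated, so genes of the dissociation and heat-shock response were read beside them. Of 13 such genes tested, 9 were lower in LP and 1, Ier2, was higher, beside 13.8% and 10.9% of all tested genes. The median log2 fold change of these genes was -2.04. Their summed level was 1865 to 2683 CPM in LP and 5928 to 22789 CPM in mature libraries, 0 of the 14 listed genes being without a count. Atf3, an early stress transcription factor, was at 23.5, 18.8, 67.4 and 29.8 CPM in LP and 300, 405, 348 and 155 CPM in mature libraries (-3.12 ± 0.43, edgeR adjusted p = 0.000859). Hspa1a, a heat-inducible chaperone, was at 80.7, 61.7, 288 and 97.4 CPM in LP and 584, 346, 8253 and 1309 CPM in mature libraries (-4.31 ± 1.01, edgeR adjusted p = 0.0108). Its neighbour copy Hspa1b (-4.38 ± 1.01, edgeR adjusted p = 0.0100) shares near-identical sequence with it, and Dnajb1 was lower in LP by the same test (-3.74 ± 0.47, edgeR adjusted p = 0.000587).

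The highest library of each fraction for Hspa1a was replicate 3. Nfkbiz and the subunit Rela shared this in both fractions, Rela in LP only narrowly (110.73 CPM against 110.29 CPM in LP replicate 4). Nfkbia and Tnfaip3 shared it among the mature libraries, and Bcl3 among the LP libraries. A peak in replicate 3 was thus not particular to feedback genes. The subunits Nfkb1 (55.9 CPM), Nfkb2 (14.3 CPM) and Rela (84.0 CPM) likewise peaked in mature replicate 3. Bcl3 (64.0 CPM), Relb (29.95 CPM) and Rel (6.61 CPM) peaked in mature replicate 1, and Nfkbie (33.1 CPM) in mature replicate 4. Without mature replicate 3, Tnfaip3 had a log2 fold change of -1.26 (edgeR adjusted p = 0.0341), Bcl3 of -0.96 (0.0229) and Nfkbia of -0.51 (0.153). The part of the stress response in the levels of the feedback genes was not tested.

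**Figure D5:**
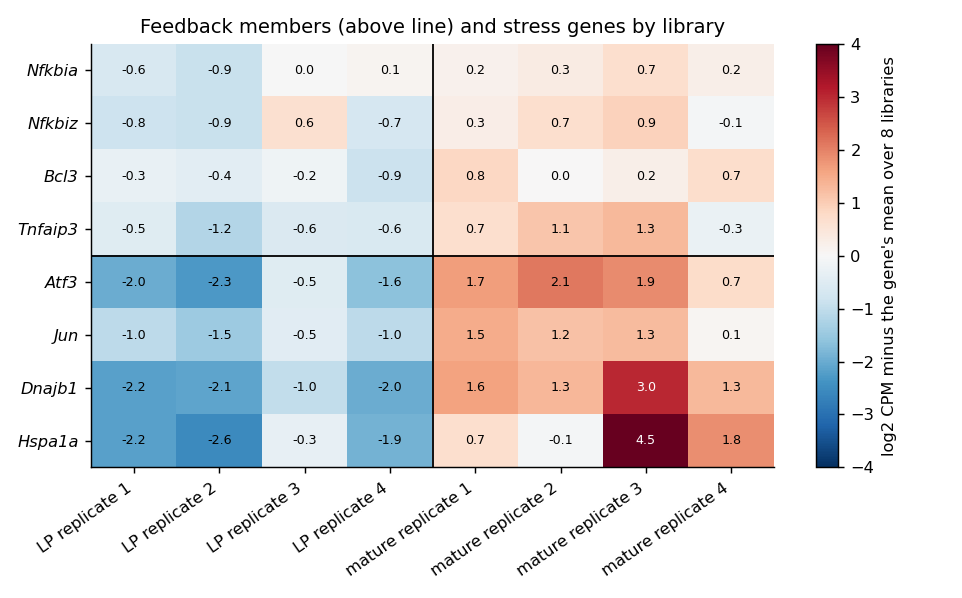
Log2 CPM minus the gene's mean over the 8 libraries (colour scale and numbers) for 4 feedback members above the line and 4 stress genes below it, by library. The mature libraries are mostly above the mean for the genes drawn, and mature replicate 3 has the highest Hspa1a level, 8253 CPM. Genes with positive log2 fold changes are not drawn, namely the feedback member Nfkbie (1.14) and the stress genes Ier2 (1.40) and Egr1 (1.17). The shared pattern depends in part on that choice.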

How the data were processed

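RNA of sorted luminal cells was amplified as cDNA from 500 pg and libraries were amplified for 8 cycles. Per the labels' processing notes, the authors trimmed the 51 bp single-end reads with cutadapt 4.2 and aligned them with Bowtie2 2.3.5.1, while the paper's methods name another Bowtie2 version. The genome was mm10. Bowtie2 does not split reads over introns, so reads spanning exon junctions can be lost. The authors deposited raw counts, as whole numbers for 24594 Entrez Gene IDs, without normalization. The counting program, its annotation, its use of strand and its handling of multi-mapping reads are not given in the sources used here. The study's methods state 3 replicates per condition for RNA sequencing, and the table holds 4 LP and 4 mature libraries, all used here. Pairs of libraries within a fraction differed by a chi-square per degree of freedom of 12.7 to 100, so none was a copy of another.

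RefSeq gave symbols for 24570 IDs, and positions (GRCm38.p6). GENCODE M21 gave exon lengths and overlapping genes. Counts were analysed with edgeR 4.0.16 in R 4.3.3 (filterByExpr by fraction, TMM, quasi-likelihood F-test, Benjamini-Hochberg over 12816 genes, threshold 0.05), SE being the absolute log2 fold change divided by the square root of F. The common biological coefficient of variation was 0.393. Alternatives used other scalings, DESeq2 1.42.0, the likelihood ratio test, no filter, a replicate block and libraries left out. The fit with no factors was added after the values were seen. The tests were tested on simulated data.

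The members, gene lists and tests were chosen with earlier results of these data known. Named genes were all members, up to 4 called genes per list with the largest absolute log2 fold change above 1 (in lists with none, the 2 with the highest mean CPM), and the 3 genes with profiles most like Nfkb1, Nfkbia and Nfkbiz. Other genes (Ier2, Egr1, Rnf11, Tnfsf11, Chuk, Ikbkb, the cell type markers and, in a figure, Jun) were named or drawn after their values were seen. Promoter windows for Nfkb1, Relb and Nfkbiz were not used here. Figures were drawn with matplotlib 3.10.9 in Python.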

Additional observations from a re-analysis of the deposited data

Results flagged for a closer look

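Values of the members were screened for a library far from the other 3 of its fraction, as the gap to the nearest library divided by the range of the fraction, read against Dixon's critical value for 4 samples. Of 20 groups examined, chance gives about 1 above that value, and 2 were above it. Nfkbiz in LP replicate 3 (37.4 CPM against 12.8 to 14.8 CPM in the others) had a ratio of 0.917. Nfkb2 in LP replicate 4 (12.1 CPM against 20.1 to 21.5 CPM) had a ratio of 0.855. Without these libraries the log2 fold change was -1.28 for Nfkbiz and 0.77 for Nfkb2.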

How the results depend on the processing

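All members kept the sign of their log2 fold change under every alternative that was run. The replicate numbers were not taken as pairs. Column names also join each LP library to the mature library of the same replicate number by a shared identifier. The labels do not say what it marks. The deviations of same-numbered libraries correlated at 0.113, 0.062, 0.148 and 0.084, with a mean of 0.102. LP and mature libraries of different numbers had a mean correlation of -0.034, and 7 of 8 libraries correlated best with their own number. With the number as a replicate block, 3027 genes were called and 5 members (2 higher in LP), adding Nfkbia (-0.71, edgeR adjusted p = 0.0440) and Nfkbie (1.25, 0.00835). DESeq2's Wald test and edgeR's likelihood ratio test called the same 5 members, with log2 fold changes of -0.64 and -0.66 for Nfkbia and 1.16 and 1.15 for Nfkbie. Without normalization factors 2 members were called higher in LP and 1 lower, Nfkbie was at 1.30 and Bcl3 at -0.72. Under that scaling 3 kinase genes passed the test. Libraries then did not overlap for 1 member, Tnfaip3, and for 3855 of all tested genes. The cause of these changes was not tested.

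With libraries left out singly or by number, the genes called ranged from 1615 (without replicate 2) to 3414, the genes higher in LP from 736 to 1668 and the genes lower in LP from 879 to 1746. The members called ranged from 1 to 4, those higher in LP from 0 to 2 and those lower from 1 to 3. The count was 1 without LP replicate 2, or with replicate 1, 2 or 4 left out of both fractions. Log2 fold changes ranged from 1.52 to 2.24 for Rel, -0.86 to -0.50 for Nfkbia, 0.90 to 1.49 for Nfkbie, -1.28 to -0.53 for Nfkbiz, -1.08 to -0.69 for Bcl3 and -1.75 to -1.24 for Tnfaip3. Called genes ranged from 0 to 1 for the kinases, 2 to 4 for the adaptors, 0 to 4 for the brakes, 3 to 6 for the receptors, 0 to 1 for the ligands and 6 to 13 for the target genes. With a replicate number left out of both fractions, members without overlap ranged from 3 to 6. Over all tested genes that count also rose, from 3777 with all libraries to between 4706 and 5556. The 1 ligand call, Tnfsf12, was lost in 10 of 12 such fits. With the longest transcript as length, Nfkb1 was at 11.5 RPKM in place of 3.97 RPKM. With 4 libraries of this spread, changes under 2-fold in genes such as Rela may pass unseen, and for Relb even a 2-fold lower level in LP may.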

Other observations

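The ratios of counts between members within a library, chosen after their values were seen and given without a test, do not depend on how libraries are scaled. Each sets a member with a negative log2 fold change over one with a positive value. The choice itself therefore favours a difference between the fractions. Nfkbia had 12.1, 7.46, 10.3 and 9.78 times the counts of Nfkbie in LP replicates 1 to 4 and 72.6, 41.5, 36.1 and 19.6 times in mature replicates 1 to 4, with no overlap. The count of Tnfaip3 divided by that of Rel was 0.53, 0.25, 1.88 and 0.58 in LP and 3.55, 12.1, 11 and 2.56 in mature libraries. The count of Bcl3 divided by that of Nfkb1 was 0.34 to 0.68 in LP and 0.75 to 2.43 in mature libraries.

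Tnfsf11, the gene for RANKL and known as a product of hormone-sensing mature luminal cells, had 160 counts, all of them in mature replicate 3 (23.1 CPM), and did not pass the low-count filter.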
